A study of Rattus norvegicus with 8 samples.

Results

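The genes described here make, move and break down the inhibitory transmitter GABA or encode its slow, G protein-coupled receptor. They are Gad1, Gad2, Slc32a1, Slc6a11, Abat, Gabbr1 and Gabbr2, taken as the protein-coding rows of the deposited count table that carry these symbols. All 7 were found, each as 1 row, among 34298 genes in the table, and all 7 were among the 16573 genes that passed the filter on low counts. The 8 samples were orbitofrontal cortex of male Sprague-Dawley rats (outbred, with no stated genetic change), adults that were 8 weeks old on arrival. In the scrambled group (replicates 1, 3, 4 and 5) a control siRNA of scrambled sequence was infused, and in the knockdown group (replicates 1 to 4) one aimed at the junction that closes circNrxn3, the circular RNA spliced from the neurexin 3 gene. Values per library are always given in that order of replicates. Both groups received 5 ng of siRNA in 1 µl of JetPEI transfection reagent, and tissue was taken 7 days later. The infusion is local and enters no defined cell type, so each library mixes reached and unreached neurons and glia. The design asks how mRNA levels in this cortex respond to loss of the circular RNA.

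GABA is made from glutamate by the glutamate decarboxylases GAD67 (Gad1), which is spread through the cytoplasm, and GAD65 (Gad2), which sits mainly at nerve endings. The vesicular transporter VGAT (Slc32a1) loads it into synaptic vesicles, and these 3 genes mark inhibitory neurons of the cortex. Released GABA is taken up in part by the astrocyte transporter GAT-3 (Slc6a11) and is broken down in mitochondria by GABA transaminase (Abat). The metabotropic GABA-B receptor is an obligate pair of GABBR1, which binds GABA, and GABBR2, which couples to the G protein and carries GABBR1 to the cell surface.

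Sequences are given for the silencing RNA and for the promoters of the genes whose levels are set against each other below. The antisense strand of the circNrxn3 siRNA is shown 5′ to 3′ with its seed, bases 2 to 8, in capitals, and the sense strand in lower case.
Antisense: uUCCUGUCuagccuuuggauu
Sense: uccaaaggcuagacaggaauu

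The 250 bases before the annotated start were taken from RefSeq on the GRCr8 build, which is not the rn6 build of the counts, for the synthesis and vesicle loading genes and the receptor pair. RefSeq lists 1 promoter for each of 6 of the 7 genes. Capitals mark any match, on either strand, to 6 short motifs. They are the TATA box, spelled TATAAA, the GC box of zinc finger factors, spelled GGGCGG, the core of the cyclic AMP response element, spelled TGACG, the core site of homeodomain factors, spelled TAATTA, an E-box of helix-loop-helix factors, spelled CAGCTG, and the CCAAT box. No pair of marked matches overlaps.
Gad1 (chr3:75777202-75777451, plus strand): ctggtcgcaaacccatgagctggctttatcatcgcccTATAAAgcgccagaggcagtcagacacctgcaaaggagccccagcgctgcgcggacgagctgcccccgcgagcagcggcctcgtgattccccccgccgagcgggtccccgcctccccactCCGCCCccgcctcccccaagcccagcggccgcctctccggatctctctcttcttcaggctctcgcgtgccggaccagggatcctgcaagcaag
Gad2 (chr17:89671468-89671717, plus strand): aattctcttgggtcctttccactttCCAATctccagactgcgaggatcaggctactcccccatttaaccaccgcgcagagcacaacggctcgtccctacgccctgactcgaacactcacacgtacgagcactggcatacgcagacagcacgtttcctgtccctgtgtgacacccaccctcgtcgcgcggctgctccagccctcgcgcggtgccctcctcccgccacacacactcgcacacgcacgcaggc
Slc32a1 (chr3:167686995-167687244, plus strand): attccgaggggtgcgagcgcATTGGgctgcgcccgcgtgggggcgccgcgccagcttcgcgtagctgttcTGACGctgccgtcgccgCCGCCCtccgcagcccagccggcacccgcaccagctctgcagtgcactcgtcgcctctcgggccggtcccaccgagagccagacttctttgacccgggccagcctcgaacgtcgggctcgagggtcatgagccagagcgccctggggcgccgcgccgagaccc
Gabbr1 (chr20:1499237-1499486, minus strand): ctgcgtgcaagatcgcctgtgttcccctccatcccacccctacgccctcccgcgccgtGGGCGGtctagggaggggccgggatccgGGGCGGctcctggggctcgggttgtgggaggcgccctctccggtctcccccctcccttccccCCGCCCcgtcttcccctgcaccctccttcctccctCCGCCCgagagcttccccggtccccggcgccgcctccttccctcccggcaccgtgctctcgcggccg
Gabbr2 (chr5:66083696-66083945, minus strand): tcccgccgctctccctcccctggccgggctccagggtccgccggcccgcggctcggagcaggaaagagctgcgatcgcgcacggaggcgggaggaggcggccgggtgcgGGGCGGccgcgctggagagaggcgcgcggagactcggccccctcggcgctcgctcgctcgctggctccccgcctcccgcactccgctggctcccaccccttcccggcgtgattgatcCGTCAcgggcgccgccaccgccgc

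All 5 windows were rich in G and C. Their share of G and C was 68.4% for Gad1, 62.0% for Gad2, 73.6% for Slc32a1, 75.6% for Gabbr1 and 78.8% for Gabbr2, against a median of 51.2% over 33469 rat promoter windows of that length. CpG pairs numbered 22 to 39 per window, against a median of 5. A GC box was present in Gad1, Slc32a1, Gabbr1 (4 matches) and Gabbr2 and in 30.5% of all windows. The letters TGACG or CGTCA were present in Slc32a1 and Gabbr2 and in 18.2% of all windows. A CCAAT match stood in Gad2 and Slc32a1 and in 34.0% of all windows, and TATAAA in Gad1, 213 bases before the start, and in 12.9%. TAATTA (4.86% of all windows) and CAGCTG (11.97%) had no match in the 5. These are matches of letters and not tested binding sites.

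Libraries held 27589883 to 35221782 counts in genes. The host gene Nrxn3 was counted 344, 114, 216 and 261 times in the scrambled libraries and 430, 381, 82 and 268 times in the knockdown libraries. Poly-T selection keeps mainly linear mRNA, so the level of the circle itself was not analysed here. The tissue label was set against marker lists. Excitatory neuron markers summed to 9247 to 10496 CPM (counts scaled to library size), astrocyte markers to 4662 to 5617, oligodendrocyte markers to 2320 to 5038 and inhibitory interneuron markers to 2522 to 3085. Markers of striatal projection neurons, which are themselves GABAergic and lie below the frontal cortex, summed to 578 to 679 CPM, with Isl1 and Six3 at 0 in every library. The interneuron peptide gene Npy had 0 counts in at least 1 library, and the endothelial marker Cldn5 had 0 in every library. Whether these 0 counts come from the tissue or from the gene models was not tested.

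GABBR1 transcripts were by far the most abundant of the 7 and those of the astrocyte transporter GAT-3 the least. Levels of different genes were compared on the deposited FPKM scale, read counts per kilobase of gene model and sequencing depth, which the authors had already scaled between libraries. Over the 8 libraries Gabbr1 was at 170 ± 9.31 FPKM, Gad1 at 55.5 ± 4.76, Gabbr2 at 54.2 ± 6.14, Slc32a1 at 53.3 ± 6.61, Gad2 at 25.5 ± 1.80, Abat at 12.6 ± 3.22 and Slc6a11 at 4.72 ± 2.0 (SD, n = 8). Gabbr1 exceeded Gad1 in 8 of 8 libraries, by 2.58 to 3.93 times. Gad1, Gabbr2 and Slc32a1 did not differ beyond their spread: Gad1 exceeded Gabbr2 in 4 of 8 libraries, and Gabbr2 exceeded Slc32a1 in 4 of 8. The lower steps, from Slc32a1 to Gad2, Gad2 to Abat and Abat to Slc6a11, held in 8 of 8 libraries with ranges that did not overlap.

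**Figure D1:**
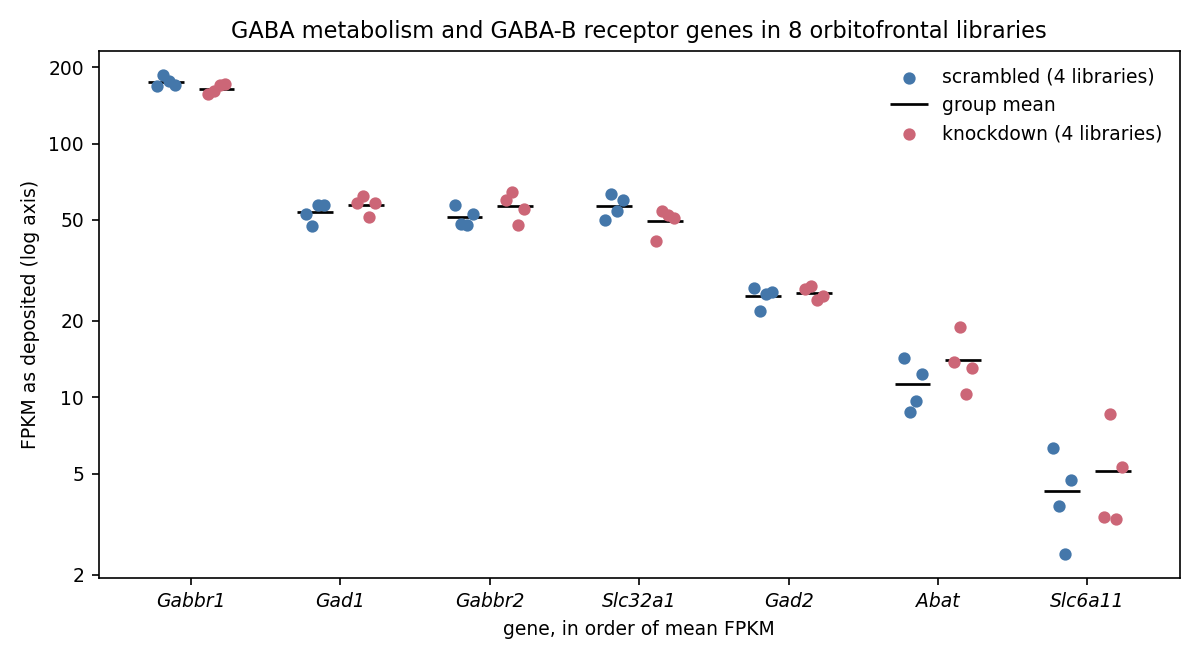
Deposited FPKM (log axis) of each gene, with 1 point per library in the scrambled (blue) and knockdown (red) groups and a bar at each group mean. Gabbr1 stands at 156 to 187 FPKM, Gad1, Gabbr2 and Slc32a1 share a band of 41.5 to 64.5 FPKM, and the points of the groups overlap for each gene.

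No gene of the set passed the test between knockdown and scrambled libraries. The quasi-likelihood test of edgeR, adjusted by the Benjamini-Hochberg method, called 0 of the 7 at an adjusted p under 0.05, and 0 of all 16573 genes tested (0%). At an unadjusted p under 0.05 there were 0 of the 7, against 5.59% of all genes. The groups overlapped for all 7, and 3.48% of all genes had groups that did not overlap. Log2 fold changes, knockdown over scrambled, were above 0 for 5 of the 7 and below 0 for Slc32a1 and Gabbr1, with a median of 0.11 against 0.0066 over all genes tested. Each library mixes many cell types, so fewer cells of a type and less RNA per cell cannot be told apart in any value below.

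Neither decarboxylase gene differed between the groups beyond the spread of the libraries. Gad1 (ENSRNOG00000000007, chromosome 3, 56861396 to 56902157, plus strand, rn6) had 206, 183, 222 and 222 CPM under scrambled siRNA and 229, 244, 199.9 and 228 CPM under circNrxn3 siRNA. Scrambled replicate 3 was the lowest and knockdown replicate 2 the highest, and knockdown replicate 3 lay within the scrambled range. Gad1 had a log2 fold change of 0.11 ± 0.09 (value ± standard error, as in all such pairs below), a percent change of 8.24% with a 95% interval from −5.34% to 23.8% (edgeR adjusted p = 0.841). Gad2 (ENSRNOG00000018200, chromosome 17, 89171250 to 89238040, plus strand) had 152, 122, 142 and 146 CPM under scrambled siRNA and 151, 155, 137 and 140 CPM under circNrxn3 siRNA. Only scrambled replicate 3 was below all knockdown values, and 2 of the 4 knockdown libraries were above the scrambled median. The fitted log2 value was 0.05 ± 0.08, with an interval from −8.66% to 18.1% (edgeR adjusted p = 0.917). The sign of the Gad2 value turned without scrambled replicate 3 (−0.013). Within a library Gad1 exceeded Gad2 by 1.95 to 2.34 times in FPKM, with ratios of 2.14 ± 0.13 under scrambled and 2.22 ± 0.10 under circNrxn3 siRNA (SD, n = 4 each) and overlapping groups.

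The vesicular transporter gene had the lowest unadjusted p of the 7 and a value opposite in sign to the decarboxylases. Slc32a1 (ENSRNOG00000015393, chromosome 3, 155103150 to 155107817, plus strand) had 121, 151, 129 and 143 CPM under scrambled siRNA and 101, 132, 126 and 122 CPM under circNrxn3 siRNA. All 4 knockdown values lay below the scrambled median, but scrambled replicate 1 lay below 3 of them. The fitted log2 value was −0.18 ± 0.10, a percent change of −11.7% with an interval from −24.5% to 3.26% (edgeR adjusted p = 0.833). Numbers 1, 3 and 4 were used in either group, and at each of them the knockdown value was the lower: 101 against 121 CPM, 126 against 151 and 122 against 129. Such a shared sign at all 3 numbers was also found for Gabbr1 (lower), Gad1 and Gabbr2 (both higher), that is for 4 of the 7 genes. The share of all tested genes with such a sign was not computed, so this count is a description only. With the replicate number as a block the log2 fold change was −0.20 and did not pass (edgeR unadjusted p = 0.0109, adjusted p = 0.311). The FPKM ratio of Slc32a1 to Gad1 was 0.949, 1.34, 0.946 and 1.05 in scrambled and 0.712, 0.874, 1.02 and 0.871 in knockdown libraries. Knockdown replicate 3 alone kept the groups of this ratio from separating. The ratio of Slc32a1 to Gad2 was 1.85, 2.89, 2.12 and 2.30 in scrambled and 1.55, 1.98, 2.15 and 2.04 in knockdown libraries. Its groups mixed more, with scrambled replicate 1 below knockdown replicates 2, 3 and 4.

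Genes listed as interneuron markers were set beside these 3 genes. Whether each is confined to inhibitory neurons in this tissue was not tested. Of 20 interneuron markers tested 0 passed, 7 had log2 fold changes above 0 and 13 below, and the median was −0.13, against 0.0066 and 51.3% above 0 over all genes. At an unadjusted p under 0.05 there were 2 of the 20, against 5.59% of all genes (edgeR). The groups did not overlap for 1 of the 20, Tac3, against 3.48% of all genes. Their summed level was 2522 to 3085 CPM in scrambled and 2634 to 2699 in knockdown libraries. It averaged 2823 and 2668 CPM, of which Cck was a large part, at 1310 ± 218 and 1060 ± 45.8 CPM (SD, n = 4 each, scrambled first). The Cck means differed by more than the sums did, so the lower sum does not show a fall across the list. Parvalbumin (Pvalb), the calcium buffer of fast-spiking interneurons, averaged 160 ± 32.5 and 163 ± 17.3 CPM and somatostatin (Sst), the peptide of dendrite-targeting interneurons, 525 ± 105 and 485 ± 92.3 CPM, scrambled first (SD, n = 4 each). Both were picked after their values were seen. The 4 markers with the smallest p were the peptide genes Cck (−0.31), Tac3 (−0.26) and Vip (−0.16) and the synuclein gene Sncg (−0.70), each with an edgeR adjusted p of 0.833. Their part in the Slc32a1 value was not tested.

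The genes of GABA uptake and breakdown varied most between libraries. Abat (ENSRNOG00000002636, chromosome 10, 7093405 to 7200499, minus strand) had 38.1, 23.0, 25.5 and 32.7 CPM under scrambled siRNA and 37.0, 50.5, 27.6 and 34.6 CPM under circNrxn3 siRNA. Knockdown replicate 2 stood highest and scrambled replicates 3 and 4 lowest, and scrambled replicate 1 was above 3 of the 4 knockdown libraries. At 0.33 ± 0.21 it had the highest log2 fold change of the 7, with an interval from −8.80% to 72.9% (edgeR adjusted p = 0.833). It was 0.15 without knockdown replicate 2. Slc6a11 (ENSRNOG00000005697, chromosome 4, 146106386 to 146223228, plus strand) had only 157 to 516 counts a library, that is 12.4, 7.19, 4.68 and 9.18 CPM under scrambled siRNA and 6.65, 16.8, 6.48 and 10.4 CPM under circNrxn3 siRNA. In FPKM its highest and lowest libraries differed 3.55-fold, and in CPM the groups overlapped from 6.48 to 12.4 CPM. The fitted log2 value was 0.27 ± 0.37, with an interval from −31.9% to 114% that is the widest of the 7 (edgeR adjusted p = 0.910). Without knockdown replicate 2 the value was −0.09.

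Astrocytes are the main site of GAT-3, so their markers were set beside Slc6a11. Of 18 astrocyte markers tested 0 passed, 3 had log2 fold changes above 0 and 15 below, and the median was −0.10, against 0.0066 and 51.3% above 0 over all genes. At an unadjusted p under 0.05 there were 5 of the 18, against 5.59% of all genes (edgeR), and the groups did not overlap for 1 of them, Ntsr2, against 3.48% of all genes. They summed to 4972 to 5617 CPM in scrambled and 4662 to 5158 CPM in knockdown libraries, and none had 0 counts in any library. By smallest p they were led by the receptor gene Ntsr2 (−0.31), the intermediate filament gene Gfap (−0.43), the fatty acid binding protein gene Fabp7 (−0.42) and Mlc1 (−0.17), each with an edgeR adjusted p of 0.833. Their part in the Slc6a11 value was not tested.

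The receptor genes were the most deeply counted of the set. Gabbr1 (ENSRNOG00000000774, chromosome 20, 1955359 to 1984863, minus strand) had 32068 to 42165 counts a library, that is 1147, 1257, 1193 and 1153 CPM under scrambled siRNA and 1072, 1100, 1158 and 1164 CPM under circNrxn3 siRNA. All 4 knockdown values lay below the scrambled median of the gene, though those of knockdown replicates 3 and 4 exceeded those of scrambled replicates 1 and 5. Its log2 fold change came to −0.08 ± 0.07, an interval from −14.9% to 5.09% (edgeR adjusted p = 0.859). An antisense gene model overlaps Gabbr1 and held 0.195% as many counts. Gabbr2 (ENSRNOG00000008431, chromosome 5, 62276100 to 62621737, minus strand) had 318, 263, 263 and 291 CPM under scrambled siRNA and 333, 358, 266 and 305 CPM under circNrxn3 siRNA. Knockdown replicates 1 and 2 were above all scrambled libraries, and knockdown replicate 3 was level with the lowest of them. Its log2 fold change came to 0.15 ± 0.10, an interval from −5.24% to 30.4% (edgeR adjusted p = 0.834). The FPKM ratio of Gabbr1 to Gabbr2 ran from 2.49 to 3.88 and averaged 3.43 ± 0.43 under scrambled and 2.94 ± 0.48 under circNrxn3 siRNA (SD, n = 4 each), with overlapping groups.

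**Figure D2:**
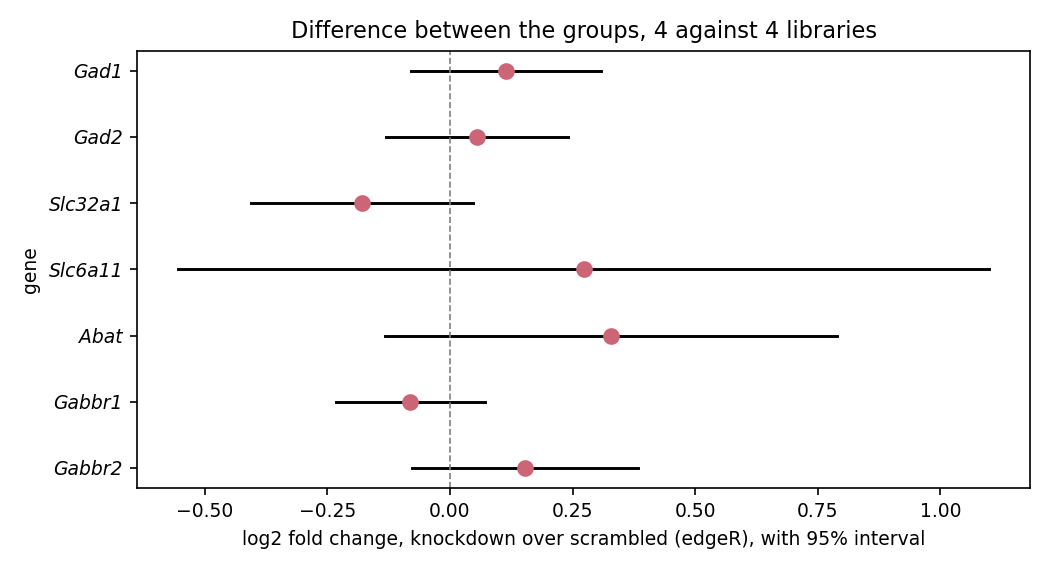
Log2 fold change (edgeR) of each gene, knockdown over scrambled, as a point with its 95% interval. Every interval crosses 0, and that of Slc6a11, from −0.55 to 1.10, is the widest.

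Spread between libraries differed widely within the set. The biological coefficient of variation, the spread between libraries beyond counting error, was 8.42% for Gabbr1, 9.87% for Gad2, 10.1% for Gad1, 11.5% for Slc32a1 and 11.5% for Gabbr2, and 21.1% for Abat and 37.9% for Slc6a11. Among 10873 genes with a mean of at least 5 CPM, 1.95% varied less than Gabbr1 and 96.1% varied less than Slc6a11. Counting error alone is 7.98% for the shallowest Slc6a11 value and 0.558% for the shallowest Gabbr1 value.

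From library to library, Abat and Gabbr2 went together, and no other pair of the 7 genes passed by both Pearson r and Spearman rho. The libraries share depth scaling, and the 7 values of a library come from 1 RNA sample. Log2 CPM values were correlated over the 8 libraries for all 21 pairs, with exact permutation p-values over 40320 arrangements, adjusted over the pairs by the Benjamini-Hochberg method. The arrangements exchange all 8 libraries freely, across the groups and the shared replicate numbers, so these p-values ignore both. By Pearson r 8 pairs had an adjusted p under 0.05, and by Spearman rho 1 pair did. That pair was Abat and Gabbr2 (r = 0.97, exact permutation p = 0.000149, adjusted p = 0.00313, and rho = 0.95, p = 0.00114, adjusted p = 0.0240). It held within the groups (r = 0.96 on deviations from the group means) and without scrambled replicate 3 and knockdown replicate 2 (r = 0.96). Of all genes with a mean of at least 5 CPM, 0.184% had an r to Abat as high as that of Gabbr2. An r over 0.8 was found with Abat for 10.5% and with Gabbr2 for 11.5% of them. Both genes also had r = 0.90 with a measure of gene length described below. The part of that measure in this pair was not tested. Abat also went with Gad2 (r = 0.85, 0.72 without those 2 libraries) and with Slc6a11 (r = 0.82, 0.56 without scrambled replicate 4 and knockdown replicate 2) and against Gabbr1 (r = −0.81, −0.65 without scrambled replicate 3 and knockdown replicate 2), each with an adjusted exact permutation p of 0.0473. By rho these were 0.88, 0.74 and −0.86, with adjusted exact permutation p of 0.0507, 0.120 and 0.0563.

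The receptor subunit genes had a negative correlation of a size that is common in these libraries. An r under −0.8 was found with Gabbr1 for 7.87% and with Gabbr2 for 11.8% of the genes with a mean of at least 5 CPM. Gabbr1 and Gabbr2 had r = −0.82 (exact permutation p = 0.0111, adjusted p = 0.0473) and rho = −0.88 (p = 0.00724, adjusted p = 0.0507), with r = −0.76 within the groups and r = −0.87 without scrambled replicate 3 and knockdown replicate 1. Gabbr1 and Gad2 also had a negative value (r = −0.86, exact permutation p = 0.00632, adjusted p = 0.0473, and rho = −0.83, p = 0.0154, adjusted p = 0.0646). Without scrambled replicate 3 and knockdown replicate 2 this value was −0.61. Gad2 and Gabbr2 had r = 0.79 (exact permutation p = 0.0130, adjusted p = 0.0473), and 0.78 without the same libraries. By rho this pair had 0.79 (exact permutation p = 0.0279, adjusted p = 0.0977). An r over 0.8 was found with Gad2 for 7.45% and with Gad1 for 2.61% of the genes with a mean of at least 5 CPM. Gad1 and Gad2 had r = 0.80 (exact permutation p = 0.0180, adjusted p = 0.0473) and rho = 0.69 (p = 0.0694, adjusted p = 0.132), with r = 0.79 within the groups, but r was 0.20 without scrambled replicate 3 and knockdown replicate 3. Leaving out those libraries also narrows the range of Gad1, so this drop cannot show how far the relation rests on them. The relation of Slc32a1 to the decarboxylases, which are made in the same neurons, did not pass (r = −0.42 with Gad1, exact permutation p = 0.297, adjusted p = 0.367, rho = −0.29, p = 0.501, adjusted p = 0.526; r = −0.57 with Gad2, p = 0.151, adjusted p = 0.226, rho = −0.33, p = 0.428, adjusted p = 0.473). Without the outermost libraries, those r values were 0.02 (without scrambled replicate 3 and knockdown replicate 3) and −0.44 (without scrambled replicate 3 and knockdown replicate 2).

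**Figure D3:**
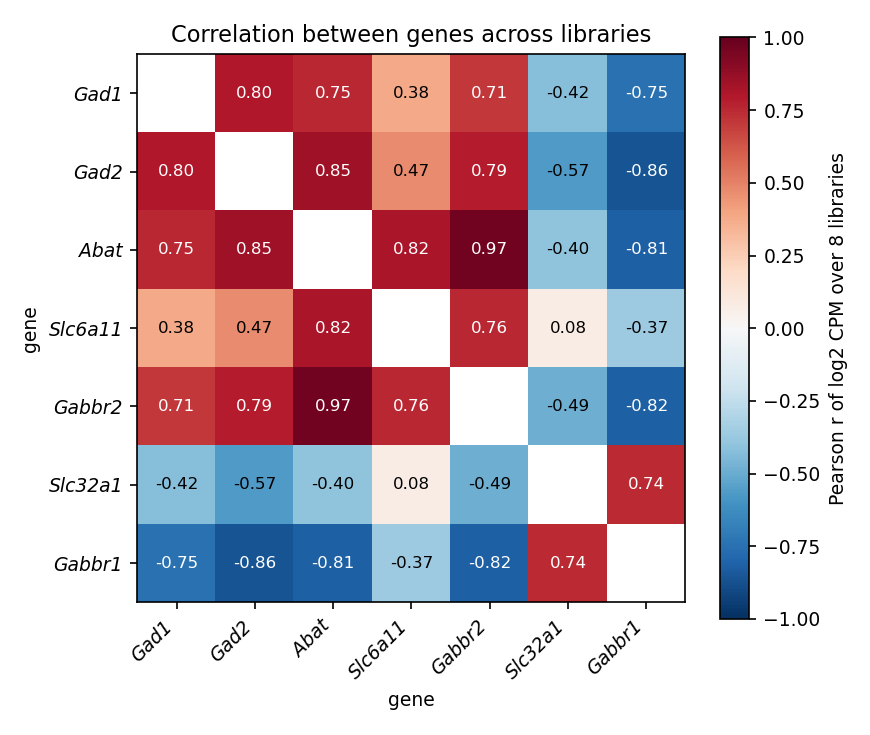
Pearson r of log2 CPM over the 8 libraries for each pair of genes, from blue (−1) to red (1). Gad1, Gad2, Abat, Slc6a11 and Gabbr2 have positive values with each other, from 0.38 to 0.97, and Gabbr1 has negative values with all 5, from −0.86 to −0.37.

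Libraries also differed in how much of their RNA came from long gene models. By Pearson r 3 of the genes passed in their relation to that, and by Spearman rho none did. The length measure is the log2 ratio of summed CPM of genes over 3486 bp to those under 1372 bp, centred on 0. It averaged −0.08 ± 0.10 under scrambled and 0.08 ± 0.13 under circNrxn3 siRNA (SD, n = 4 each) and ran from −0.18 in scrambled replicate 4 to 0.26 in knockdown replicate 2, with overlapping groups. Gabbr2 had r = 0.90 with it (exact permutation p = 0.00295, adjusted p = 0.0141 over the 7 genes, rho = 0.83, p = 0.0154, adjusted p = 0.0762) and r = 0.79 without scrambled replicate 4 and knockdown replicate 2. Abat had r = 0.90 (exact permutation p = 0.00404, adjusted p = 0.0141, rho = 0.81, p = 0.0218, adjusted p = 0.0762) and r = 0.75 without the same libraries. Slc6a11 had r = 0.82 (exact permutation p = 0.0125, adjusted p = 0.0292, rho = 0.76, p = 0.0368, adjusted p = 0.0858), but r was 0.41 without those libraries. Leaving out the outermost libraries also narrows the range of the measure, so this drop cannot show how far the relation rests on them. Within the groups the r values of these 3 genes were 0.89, 0.88 and 0.90. Slc32a1 had r = −0.38, and −0.81 without the same libraries. The other 4 genes had adjusted p from 0.131 to 0.352 by r and from 0.275 to 0.327 by rho. The gene models are 5475 bp for Gabbr2, 2638 for Abat, 1935 for Slc6a11, 5561 for Gad2 (r = 0.58), 3866 for Gad1 (r = 0.56), 2385 for Slc32a1 and 6737 for Gabbr1 (r = −0.66). Those of Gabbr2, Gad2, Gad1 and Gabbr1 are long enough to be counted within the measure. The part of a gene's own length in these r values was not tested. An absolute r as high as that of Gabbr2 was found in 2.28% of the genes with a mean of at least 5 CPM. For Abat this share was 2.66%, for Slc6a11 10.2% and for Gad1 43.1%. An absolute r above 0.8 was found in 12.5% of these genes.

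With the length measure as a covariate, the log2 fold changes of 4 genes turned from above to below 0. Abat went from 0.33 to −0.12, Gabbr2 from 0.15 to −0.06, Gad2 from 0.05 to −0.037 and Slc6a11 from 0.27 to −0.55 (edgeR adjusted p = 0.999 each). Slc32a1 stayed at −0.17. The measure itself averaged higher in the knockdown group, and it includes the counts of Gabbr2 and Gad2. With 8 libraries this fit cannot fully separate the group from the measure, so the changes of sign are a description only. What sets the length measure of a library was not tested.

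**Figure D4:**
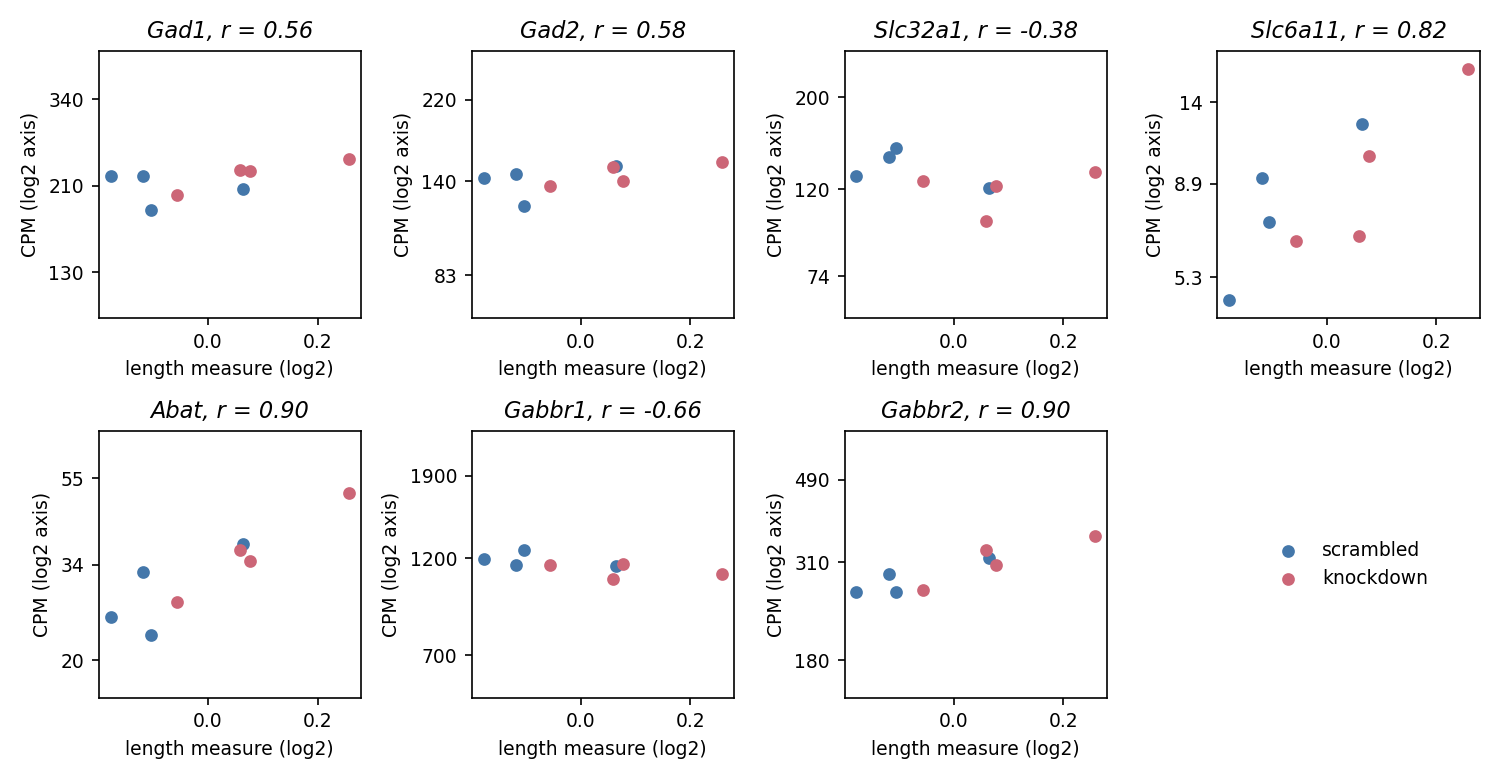
CPM of each gene (log2 axis of the same width in each panel) against the length measure of the library, with scrambled libraries in blue and knockdown libraries in red. Abat, Gabbr2 and Slc6a11 climb from left to right, Gad1 and Gad2 less so, and knockdown replicate 2 is the point farthest right, at 0.26.

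For each gene the protein-coding genes most like it were named by Pearson r of log2 CPM over the 8 libraries, out of 10225 with a mean of at least 5 CPM. These are the highest of many values and carry no p. For Gad1 they were Gpn3 (r = 0.97) and Senp6 (0.97), and for Gad2 Spg11 (0.98) and Adam9 (0.98). Slc32a1 was closest to Radil and Nfix (0.98 each). Slc6a11 was closest to Fbxl16 (0.98) and Igdcc4 (0.97). For Abat they were Ppm1a and Nrep (0.98 each), for Gabbr1 Pld3 and Actl6b (0.99 each) and for Gabbr2 March7 and Dck (0.99 each). An r over 0.8 was common: 10.5% of genes had one with Abat, 11.5% with Gabbr2, 9.99% with Gabbr1 and 2.61% with Gad1.

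Genes that act with this set likewise gave 0 calls. Among 19 tested effectors and partners of the GABA-B receptor, 13 had log2 fold changes above 0 and 6 below, with a median of 0.10, and 2 had an unadjusted p under 0.05, against 5.59% of all genes (edgeR). Gnai2, an inhibitory G protein subunit, averaged 445 ± 24.5 CPM under scrambled and 360 ± 26.2 CPM under circNrxn3 siRNA (SD, n = 4 each). Its groups did not overlap, as for 1 of the 19 and 3.48% of all genes, and its log2 fold change was −0.31 (edgeR adjusted p = 0.833). App, whose secreted ectodomain binds GABBR1, had 0.18, the G protein subunit Gnb5 0.17 and Gnb2 −0.20. The potassium channel genes Kcnj3, Kcnj6 and Kcnj9, which the receptor opens, had 0.19, −0.20 and 0.17 (edgeR adjusted p = 0.941, 0.894 and 0.906, picked after their values were seen). The GABA-B auxiliary subunit genes Kctd8, Kctd12 and Kctd16 had no protein-coding row under these symbols or their synonyms, so they were not analysed here.

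Of 19 tested genes of precursor supply, other transport and catabolism, 10 had log2 fold changes above 0 and 9 below, with a median of 0.02. The glutamine transporter gene Slc38a2 averaged 85.9 ± 9.47 and 99.6 ± 7.50 CPM (SD, n = 4 each, scrambled first), for a log2 value of 0.21 (edgeR adjusted p = 0.833). It had the only unadjusted p under 0.05 of these 19 genes, against 5.59% of all genes (edgeR). Slc38a5 and Slc38a3, also glutamine transporters, had −0.62 and −0.18, and Aldh9a1, an aldehyde dehydrogenase that can make GABA, 0.28. Aldh5a1, the enzyme that follows GABA transaminase, averaged 77.9 ± 5.13 and 80.4 ± 2.12 CPM (SD, n = 4 each, scrambled first), for a log2 value of 0.05, and was picked after its values were seen. Of 16 tested genes for GABA-A receptor subunits and their partners, 10 were above 0 and 6 below, with a median of 0.07. Groups did not overlap for 2 of the 16, against 3.48% of all genes: Gphn, the gephyrin scaffold of inhibitory synapses (log2 value 0.18 ± 0.08), and the subunit gene Gabrb1 (−0.34 ± 0.15, with 7.31 ± 0.86 and 5.76 ± 0.40 CPM, SD, n = 4 each). Shisa7 had −0.07, and none of these 3 passed (edgeR adjusted p = 0.833 to 0.872).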

How the data were processed

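The authors deposited raw read counts per gene for 8 libraries, with no normalization, and FPKM values that follow from those counts, the gene length and 1 total per library. The build rn6 and the tools featureCounts 1.5.0-p3, HISAT2 2.0.5, fastp and StringTie 1.3.3b are listed, without roles, per the submitters' processing notes. The strand setting of the counting step was not given in the sources used. Per the labels' protocols the libraries were poly-T selected and strand-marked, from 4 biological replicates a group, so p-values reflect only how much these samples vary. Libraries of a group differed beyond counting noise in every pair (chi-square over its degrees of freedom, 23.2 to 47.4).

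Counts were fitted with edgeR 4.0.16 in R 4.3.3 (filterByExpr with a minimum count of 10, TMM factors, robust quasi-likelihood test, 2-sided, Benjamini-Hochberg adjustment over 16573 genes, threshold 0.05). CPM uses the TMM factors, except summed marker levels, which use library totals. The standard error is the fold change over the square root of F. Log2 CPM has a prior count of 2. Alternatives used DESeq2 1.42.0 and limma 3.58.1. The fit was tested on simulated data. Genes and lists were chosen with earlier results of these data known. Beside the 7 genes, the text names up to 4 genes with the smallest p of each list, and for each of the 7 the 2 genes most like it. The value of 1 listed gene is not reported here. Same-numbered libraries of the groups had correlated deviations from their group means (r = 0.45, 0.40 and 0.103 for numbers 1, 3 and 4 over 10873 genes with a mean of at least 5 CPM, and 0.087 for number 4 over all tested genes). Pairs of unlike numbers ran from −0.52 to 0.36, and scrambled replicate 4 correlated best with knockdown replicate 3 (0.29). Number 4 passed a limit of 0.1 only among the genes with a mean of at least 5 CPM. The labels state no pairing, so the reported fit has no block, and the blocked fit is an alternative. The reported p-values thus ignore any pairing by number.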

Additional observations from a re-analysis of the deposited data

How the results depend on the processing

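None of the 7 genes was called in any of 21 refits or at an adjusted p of 0.10. Over all genes the count was 0 in the edgeR fit, 11 with DESeq2 (1077 at an unadjusted p under 0.05), 0 with limma-voom (1008 at an unadjusted p under 0.05), 3 without scrambled replicates 3 and 4 and knockdown replicate 3 together, and 0 to 1 when each library was left out in turn, with 1 call each without knockdown replicate 2 and without knockdown replicate 3. With the replicate number as a block, 0 genes and 0 of the 7 were called, so the block changed no call. It moved Abat from 0.33 to 0.22, Slc6a11 from 0.27 to 0.02 and Gabbr2 from 0.15 to 0.10.

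Gad1, Slc32a1 and Gabbr1 kept their sign in all 21 refits, with log2 fold changes of 0.04 to 0.16, −0.23 to −0.10 and −0.11 to −0.04. With the length measure as a covariate Gad2 (−0.037), Slc6a11 (−0.55), Abat (−0.12) and Gabbr2 (−0.055) turned sign. Leaving out each library gave −0.013 to 0.095 for Gad2, lowest without scrambled replicate 3, and −0.091 to 0.52 for Slc6a11, lowest without knockdown replicate 2. It gave 0.15 to 0.47 for Abat and 0.087 to 0.22 for Gabbr2. The causes were not tested. CPM per kilobase differs from FPKM by a constant per library, so it gives no separate check of the order of levels within a library. At 4 libraries a group the intervals reach from −14.9% to 5.09% for Gabbr1, which has the most counts, and up to 114% higher for Slc6a11, which has the fewest.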

Other observations

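Transcription factors that specify GABAergic neurons were read as a further group. Of 15 tested 0 passed, 9 had log2 fold changes above 0 and 6 below, and the median was 0.04 (edgeR). They summed to 145 to 171 CPM in scrambled and 163 to 194 CPM in knockdown libraries. The 4 with the smallest p were Satb1, a chromatin organiser of interneurons (0.41, standard error 0.14), the homeobox gene Dlx6 (0.74, standard error 0.33), Sp8 (−1.31, standard error 0.88) and Sox6 (0.65, standard error 0.50), with edgeR adjusted p of 0.833 to 0.842. Sp8 had 0 counts in at least 1 library.

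The neuronal chloride transporters that set the sign of the fast GABA response were picked after their values were seen. Slc12a5, which exports chloride, had a log2 value of 0.27 ± 0.28 (standard error), and Slc12a2, which imports it, 0.07 ± 0.11 (edgeR adjusted p = 0.884 and 0.922).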
